A study of Mus musculus with 9 samples.

Results

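The transcripts described here belong to p53 and its classical target genes in cultured mouse podocytes, the epithelial cells that wrap the capillaries of the kidney glomerulus. The set was given as 10 named genes, Trp53, Cdkn1a, Mdm2, Ccng1, Plk2, Perp, Sesn1, Trp53inp1, Zmat3 and Btg2, and 9 of them were measured among 22180 genes in all. A gene was represented by 1 probe set, the brightest on average of those whose only annotated symbol was that gene's. The tenth gene, Trp53 itself, is not analysed here, because no probe set carries its symbol in the array annotation used.

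The 9 arrays, each hybridised with 1 sample, fell into 3 groups of 3, and all cells had first spent 11 days differentiating at 37 °C. Control cells received the vehicle DMSO, another group received 2.5 µM thapsigargin for 16 hours, and the remaining group received 2.5 µM thapsigargin with 10 µM forskolin for 16 hours. The first agent, thapsigargin, blocks the pump that refills the calcium store of the endoplasmic reticulum and so causes stress in that organelle, while forskolin activates the enzyme that makes cAMP. No group received forskolin alone. Replicates are labelled biological without naming separate cultures, so each p-value reflects array-to-array spread that may be technical. The labels name no cell line, and whether these cells carry a viral oncoprotein that binds p53, as many conditionally immortalized podocyte lines do, is not given in the sources used here.

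p53 is a transcription factor that is kept scarce by the ubiquitin ligase Mdm2 and accumulates after DNA damage and other stresses. It then switches on genes that halt the cell cycle, such as Cdkn1a, genes that promote cell death or autophagy, such as Perp and Trp53inp1, and genes that restrain growth signalling, such as Sesn1. Mdm2 is itself a target, which closes a negative feedback loop. Several of these genes also answer to other factors, so their transcripts are not a pure readout of p53.

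RefSeq promoter windows of 300 bases (build GRCm38.p6, 250 before to 50 after a start) were given for 7 of the 10 genes, with 9 windows in all since Cdkn1a and Sesn1 had 2 each. A perfect match to the consensus p53 half-site was in 5 of the 9 windows, 1 each in 5 genes, against 8.36% of all 32841 windows of that length. The consensus reads the same on both strands. The stretches below are shown because they are the parts of these genes' start regions where such a match was found, and capitals mark the matched bases.
Cdkn1a (chr17:29090896-29090947, plus strand): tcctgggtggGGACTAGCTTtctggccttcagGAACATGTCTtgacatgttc
Mdm2 (chr10:117710925-117710954, minus strand): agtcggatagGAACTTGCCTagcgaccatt
Ccng1 (chr11:40755452-40755481, minus strand): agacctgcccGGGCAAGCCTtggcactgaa
Sesn1 (chr10:41887256-41887285, plus strand): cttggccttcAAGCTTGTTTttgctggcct
The Cdkn1a stretch begins its matches 73 and 51 bases before the first of its starts, which lies 2790 bases before the other start, and the Mdm2, Ccng1 and Sesn1 matches begin 186, 185 and 173 bases before theirs. The remaining match was in the Trp53 window, and no perfect match was in the windows of Plk2 and Btg2. A match describes letters and does not show that p53 binds there.

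A second motif, TGACGTCA, the palindromic element known to bind the cAMP-responsive factor CREB, was searched after the values were seen. It occurred in 1.79% of all windows and in those of Plk2 and Btg2, where capitals mark it.
Plk2 (chr13:110394972-110394999, plus strand): gcgctcgccgTGACGTCAcgaggccccg
Btg2 (chr1:134079304-134079331, minus strand): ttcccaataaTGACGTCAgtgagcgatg
It began 62 bases before the Plk2 start and 166 bases before the Btg2 start. The shorter form TGACG, counted on both strands and contained in the longer one, was in 20.8% of all windows and in those of Btg2, Mdm2, Plk2 and Sesn1. Of these, Plk2 fell on adding forskolin, and Btg2, Mdm2 and Sesn1 were not called in that comparison.

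The arrays of a group correlated at 0.989 to 0.993 over 41345 probe sets, and array medians lay between 5.80 and 5.88 on the log2 scale. DMSO replicate 1 lay farther from the middle array of its group than the others did for 7 of the 9 genes, and for 42.4% of all genes. The values are bulk values scaled to like distributions, so fewer cells that express a gene and less of its RNA per cell cannot be told apart. In DMSO the mean lay above the median of all values, 5.84, for 10 of 11 measured podocyte markers, 6 of 8 tubular, 3 of 5 mesangial, 2 of 6 endothelial and 2 of 6 leukocyte markers. The tubular markers Aqp1 and Cdh16 read 11.71 and 11.16 in DMSO, higher than most podocyte markers on this scale, which is not per length, and the slit diaphragm gene Nphs1 read 6.55. The podocyte markers' mean level per array was 8.45 to 8.48 with DMSO, 7.73 to 7.76 with thapsigargin and 7.42 to 7.45 with both agents. With thapsigargin 6 of the 11 fell, led by Plce1 at -3.45 and Synpo at -2.52, 1 rose, Cd2ap at 0.23, and 4 were not called. The share called was 63.6%, beside 55.3% of genes whose mean over the 9 arrays was above the median of all values. Adding forskolin lowered 5 and raised 1, Synpo at 0.55, a share of 54.5% beside 12.9% of those genes. These marker genes were named after their values were seen. The mean levels per array, in the same order of groups, were 7.66 to 7.72, 6.65 to 6.76 and 6.72 to 6.83 for 8 tubular markers, and 7.11 to 7.25, 6.86 to 6.92 and 6.87 to 7.04 for 5 mesangial markers. They were 6.15 to 6.20, 5.97 to 6.08 and 5.94 to 6.01 for endothelial markers, and 5.79 to 5.91, 5.51 to 5.60 and 5.65 to 5.72 for leukocyte markers. After thapsigargin 3 of the 8 tubular markers were called lower, Aqp1, Cdh16 and Lrp2. Only Pdgfrb of 5 mesangial, Ehd3 of 6 endothelial and Csf1r of 6 leukocyte markers were called, each lower. The remaining markers of these lists were not called, so the means do not stand for every marker. The part of the marker shifts in the results below was not tested.

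After thapsigargin the p53 targets did not rise as a group. Of the 9 measured genes 2 rose, Plk2 and Zmat3, and 6 fell, Cdkn1a, Ccng1, Perp, Sesn1, Trp53inp1 and Btg2, while Mdm2 was not called. In limma with Benjamini-Hochberg adjustment 35% of all 22180 genes were called, 18.2% higher and 16.9% lower. All 9 genes had means above the median of all values, and among the 12999 genes above it 55.3% were called, 29.9% higher and 25.5% lower. The median log2 difference of the 9 genes was -0.20, beside -0.04 for all genes. All 9 genes had array values without overlap between these groups, against 43.9% of all genes. Zmat3 lost its call without DMSO replicate 1, DMSO replicate 2 or any 1 of the 3 thapsigargin arrays, which left 1 gene higher.

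Adding forskolin to thapsigargin changed 3 of the 9 genes. Relative to thapsigargin alone Plk2 and Perp fell and Trp53inp1 rose, where limma called 7.87% of all genes, 3.7% higher and 4.17% lower. Among the genes above the median 12.9% were called, 5.97% higher and 6.91% lower. The groups did not overlap for 7 of the 9 genes, against 26.1% of all genes. These 3 calls held in each of the 15 alternatives run. Against DMSO, cells given both agents had 0 of the 9 genes higher, also at an unadjusted p and with an intensity trend in limma, and 6 lower, Cdkn1a, Plk2, Perp, Sesn1, Trp53inp1 and Btg2. There 34.5% of all genes were called, 17.9% higher and 16.7% lower, and among those above the median 53.9%, 29% higher and 24.8% lower. The groups did not overlap for 8 of the 9 genes, against 42.6% of all genes. At an unadjusted p, 8 genes were lower, but the share of all genes at that threshold was not computed, so this count has no background beside it. The comparisons with DMSO share its 3 arrays and are given side by side.

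**Figure D1:**
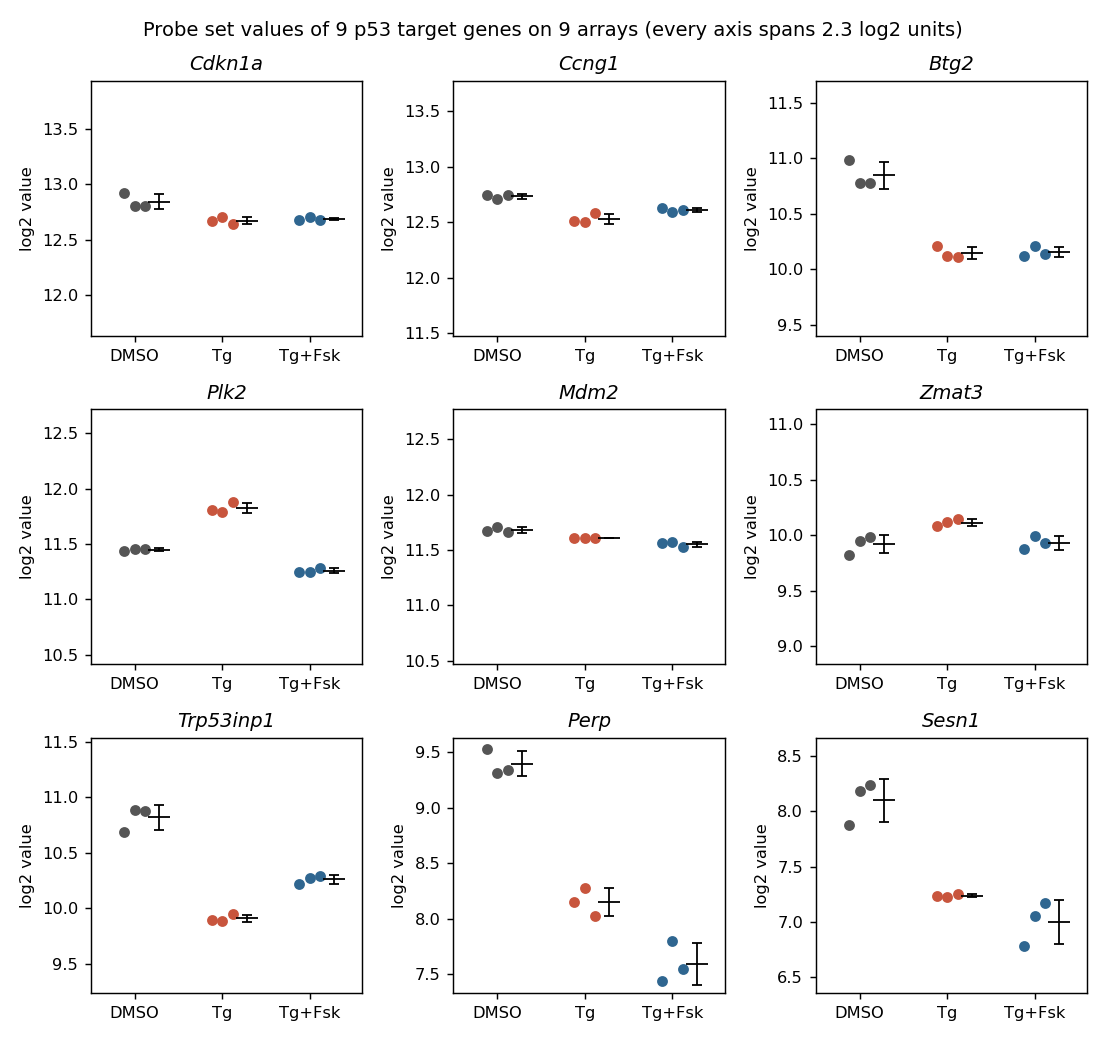
Log2 probe set values of the 9 measured genes on each array (points, replicates 1 to 3 from left to right), with the mean and SD of the 3 arrays beside them; Tg is thapsigargin and Fsk forskolin, and every vertical axis spans the same length. Cdkn1a, Ccng1 and Mdm2 stay nearly level, Perp and Sesn1 step down, Plk2 is highest with thapsigargin alone, and Trp53inp1 is lowest there.

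Among the genes of cell cycle arrest, Cdkn1a encodes p21, the inhibitor of cyclin-dependent kinases through which p53 halts the cycle. Its log2 values were 12.92, 12.80 and 12.81 on the DMSO arrays, 12.67, 12.70 and 12.64 with thapsigargin, and 12.68, 12.70 and 12.68 with both agents. The DMSO arrays were the highest, replicate 1 most of all, and both treated groups lay together below them. The difference from DMSO was -0.17 ± 0.05 (limma standard error, n = 3 a group, as for all differences below; adjusted p = 0.0306) with thapsigargin, a level 1.13-fold lower. With both agents it was -0.16 ± 0.05 (limma adjusted p = 0.0463). Forskolin added 0.02, with a 95% interval from -0.10 to 0.13. The first call was lost in 6 of the 15 alternatives, with adjusted p up to 0.0983, among them without DMSO replicate 1 (limma adjusted p = 0.0674), thapsigargin replicate 1 (adjusted p = 0.0796) or thapsigargin replicate 3 (adjusted p = 0.0983), and after centring on array medians (adjusted p = 0.0793). The second was lost in 10 of the 15, with adjusted p up to 0.164, among them on leaving out any 1 of its 6 arrays, with limma adjusted p from 0.0505 to 0.113, and with the replicate number as a block (adjusted p = 0.0629).

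Btg2, an antiproliferative protein that recruits the enzymes that shorten poly(A) tails, fell clearly. It read 10.99, 10.78 and 10.78 with DMSO, 10.21, 10.12 and 10.11 with thapsigargin, and 10.12, 10.21 and 10.14 with both agents. All 6 treated arrays lay more than the within-group spread below the DMSO arrays and overlapped each other. The log2 difference from DMSO was -0.70 ± 0.07 (limma adjusted p = 2.9e-05), or 1.63-fold lower, with thapsigargin and -0.69 ± 0.07 (adjusted p = 3.61e-05) with both. The forskolin difference was 0.01, with a 95% interval from -0.15 to 0.17.

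Plk2, a polo-like kinase with roles in the checkpoint response and in centriole duplication, rose with thapsigargin and fell when forskolin was added. Its values were 11.44, 11.46 and 11.45 with DMSO, 11.81, 11.79 and 11.88 with thapsigargin, and 11.25, 11.25 and 11.28 with both. The 3 groups were fully separate, with thapsigargin highest and the combination lowest. Thapsigargin raised it by 0.38 ± 0.05 (limma adjusted p = 0.000175), or 1.30-fold. Forskolin on top of thapsigargin lowered it by a log2 difference of -0.56 ± 0.05 (limma adjusted p = 0.00012), a size exceeded by few genes: 98.3% of all genes changed less in that comparison. The combination ended at -0.19 ± 0.05 relative to DMSO (limma adjusted p = 0.0128).

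Ccng1 encodes cyclin G1, which brings a phosphatase to Mdm2. It read 12.74, 12.71 and 12.75 with DMSO, 12.51, 12.50 and 12.58 with thapsigargin, and 12.62, 12.60 and 12.61 with both agents. Again the DMSO arrays were highest, and the combined arrays lay between the other groups. It fell with thapsigargin by a log2 difference of -0.20 ± 0.05 (limma adjusted p = 0.00778). Its differences of 0.08 ± 0.05 on adding forskolin (adjusted p = 0.431) and of -0.12 ± 0.05 for the combination against DMSO (adjusted p = 0.0783) did not pass, although the latter passed in 3 of the 15 alternatives, with adjusted p from 0.00201 to 0.0339.

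Mdm2, the ligase that targets p53 for degradation, had the narrowest range of group means in the set, 0.13 on the log2 scale. It read 11.67, 11.71 and 11.66 with DMSO, 11.61 on each of the 3 thapsigargin arrays, and 11.56, 11.57 and 11.52 with both agents. The 3 thapsigargin values were exactly equal in the deposited table, as for 326 of 22180 genes in that group, which lowers the spread estimated for this gene. The levels stepped down by little, without overlap between groups. The difference was -0.07 ± 0.05 with thapsigargin (limma adjusted p = 0.293; 95% interval from -0.17 to 0.03), and in 1 of the 15 alternatives, another quantile normalization, it was -0.15 and passed (adjusted p = 0.0336). It was -0.06 ± 0.05 on adding forskolin (adjusted p = 0.554). For the combination against DMSO it was -0.13 ± 0.05 (limma adjusted p = 0.0525), which passed in 4 of the 15 alternatives.

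**Figure D2:**
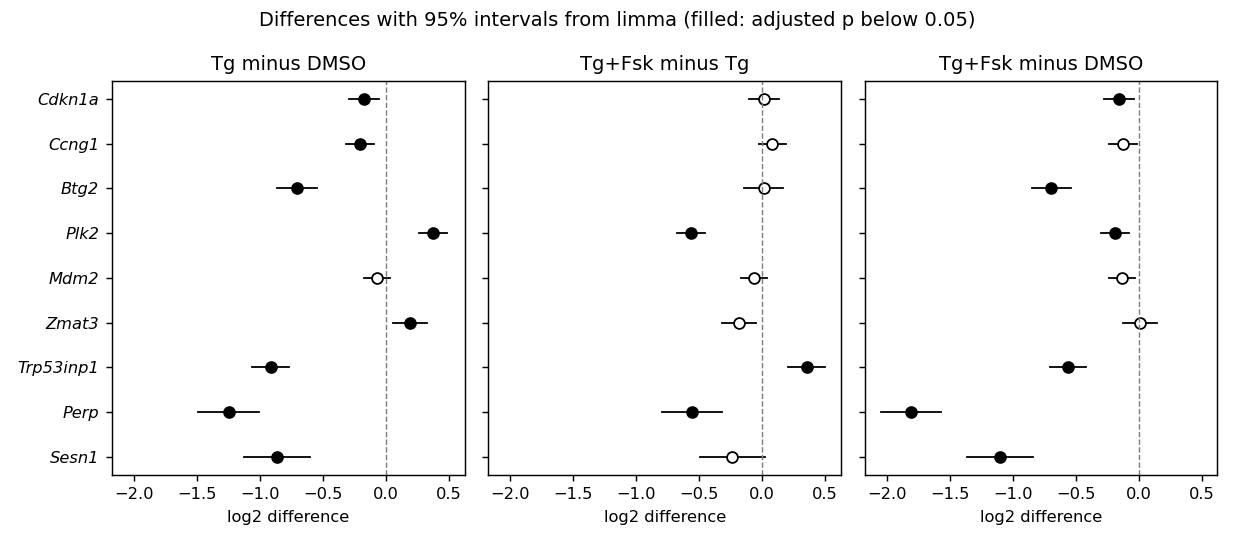
Log2 differences of the 9 genes (rows) in the 3 comparisons (panels), with 95% intervals from limma; filled points have an adjusted p below 0.05 over all genes. Perp has the largest fall against DMSO in both outer panels, at -1.25 and -1.81, and the middle panel shows calls for Plk2, Perp and Trp53inp1.

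Of the genes tied to cell death, Perp showed the largest difference from DMSO in the set. Perp encodes a small membrane protein of desmosomes that p53 induces during apoptosis. It read 9.53, 9.32 and 9.35 with DMSO, 8.15, 8.27 and 8.02 with thapsigargin, and 7.43, 7.80 and 7.54 with both agents. The groups formed 3 separate steps downward. Thapsigargin lowered it by a log2 difference of -1.25 ± 0.11 (limma adjusted p = 1.05e-05), or 2.37-fold, and forskolin lowered it further by -0.56 ± 0.11 (adjusted p = 0.0111). The combination left it 3.50-fold below DMSO (log2 difference -1.81 ± 0.11, limma adjusted p = 1.01e-06), and 98.9% of all genes changed less.

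Trp53inp1 encodes a nuclear protein that cooperates with p53 and promotes autophagy, and its pattern differed from that of Perp. It read 10.69, 10.89 and 10.88 with DMSO, 9.90, 9.88 and 9.95 with thapsigargin, and 10.22, 10.27 and 10.29 with both. Thapsigargin alone gave the lowest values and the combination lay between the other groups, with no overlap. It fell with thapsigargin by -0.91 ± 0.06 on the log2 scale (limma adjusted p = 3.04e-06; 1.88-fold lower). Forskolin raised it by 0.35 ± 0.06 (adjusted p = 0.00925), which left it at -0.56 ± 0.06 relative to DMSO (adjusted p = 9.17e-05).

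Zmat3, a zinc-finger protein that binds RNA, changed little. It read 9.83, 9.95 and 9.99 with DMSO, 10.08, 10.12 and 10.14 with thapsigargin, and 9.87, 9.99 and 9.93 with both agents. Only thapsigargin alone stood above the others, and the combined arrays overlapped the DMSO arrays. The thapsigargin difference was 0.19 ± 0.06 (limma adjusted p = 0.0312) and passed in 7 of 15 alternatives, with an adjusted p of 0.0792 without DMSO replicate 1. The forskolin difference was -0.18 ± 0.06 (limma adjusted p = 0.117), and passed only among genes above the median (adjusted p = 0.0468) and with an intensity trend (adjusted p = 0.0283). A further probe set, annotated with both Zmat3 and 4930429B21Rik, was not used, and its means were 7.31, 7.28 and 7.13 in the same order of groups.

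Sesn1 encodes sestrin 1, which restrains the growth kinase complex mTORC1 when amino acids are scarce. It read 7.88, 8.18 and 8.24 with DMSO, 7.23, 7.23 and 7.25 with thapsigargin, and 6.78, 7.05 and 7.17 with both agents. Every treated array lay below every DMSO array, and the DMSO and combined groups were spread widely, each with replicate 1 lowest. Thapsigargin lowered it by a log2 difference of -0.86 ± 0.12 (limma adjusted p = 0.000234; 1.82-fold lower), and by -0.97 without DMSO replicate 1. The combination lowered it by -1.10 ± 0.12 (adjusted p = 4.99e-05; 2.14-fold lower). Forskolin's addition of -0.24 ± 0.12 did not pass (limma adjusted p = 0.317; 95% interval from -0.50 to 0.02).

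Of 20 measured paralogs of these genes 4 rose and 7 fell after thapsigargin, with a median of -0.11. The share called was 55%, beside 35% of all genes. Among genes above the median, where 17 of the 20 paralogs lay, it was 55.3%. Sesn2, whose gene is a known target of the stress factor ATF4 as well as of p53, rose from 10.80, 10.54 and 10.62 with DMSO to 11.90, 11.86 and 11.82 with thapsigargin, a log2 difference of 1.21 ± 0.07 (limma adjusted p = 9.01e-07), while Sesn1 fell. With both agents Sesn2 read 11.72, 11.78 and 11.72. Ccng2 encodes cyclin G2, known as a target of FoxO factors. It fell by -1.80 ± 0.09 with thapsigargin, a log2 difference beside -0.20 for Ccng1, and rose by 0.64 ± 0.09 on adding forskolin (limma adjusted p = 0.00251). Trp53inp2, an autophagy protein, followed the steps of Trp53inp1, with -1.06 ± 0.06 after thapsigargin and 0.54 ± 0.06 on adding forskolin. Plk4, the kinase that starts centriole duplication, rose by 0.93 ± 0.11 with thapsigargin, and the other two that rose were Mdm4 at 0.37 and Plk3 at 0.60. Adding forskolin raised 5 of the 20 paralogs, or 25%, and lowered 0 (also 0 at an unadjusted p). In that comparison 3.7% of all genes and 5.97% of genes above the median were called higher. The 5 paralogs raised were Ccng2, Trp53inp2, Cdkn1b, which encodes the kinase inhibitor p27, at 0.63 ± 0.07, the antiproliferative gene Tob1 at 0.63 ± 0.06, and Sesn3 at 0.33. Sesn3 and Plk3 were singled out once their values were known. Cdkn1b thus rose with forskolin, whereas Cdkn1a was not called, and the difference between these genes was not tested. Mdm4, the p53 inhibitor related to Mdm2, was 0.65 ± 0.08 higher with both agents than with DMSO (limma adjusted p = 0.000119).

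**Figure D3:**
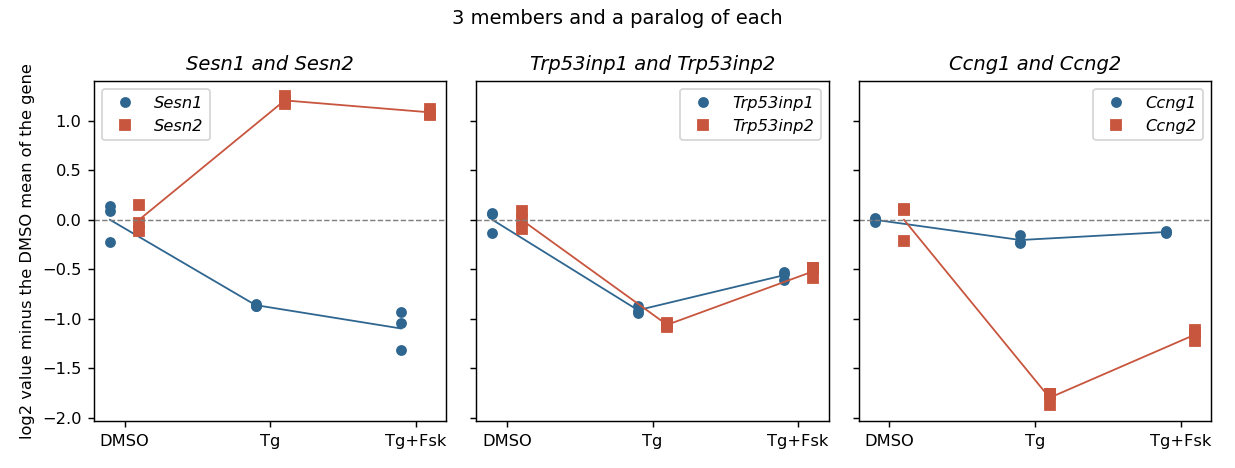
Values of Sesn1, Trp53inp1 and Ccng1 (circles) and of a paralog of each (squares) on every array, as log2 differences from the gene's own DMSO mean, with lines through the group means; Tg is thapsigargin and Fsk forskolin. Sesn1 and Sesn2 part in opposite directions, Trp53inp1 and Trp53inp2 follow one path, and Ccng2 falls by 1.80 where Ccng1 falls by 0.20.

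The genes that act on p53 moved both ways. Of 25 regulators and cofactors 9 rose and 7 fell with thapsigargin, with a median of 0.20 beside -0.04 for all genes. The share called was 64%, beside 55.3% of genes above the median. The kinase gene Atr rose by 1.11 ± 0.09, Chek2 by 0.87 ± 0.06, Chek1 by 0.76 ± 0.11 and Atm by 0.72 ± 0.11. Prkdc, another kinase of the damage response, was not called at 0.27 (limma adjusted p = 0.0673). Atm and Prkdc were named after their values were seen. Cdkn2a, the locus of the Mdm2 inhibitor ARF and of the kinase inhibitor p16, fell by a log2 difference of -0.81 ± 0.07 (limma adjusted p = 7.23e-06). With both agents against DMSO, 10 rose and 5 fell, a share of 60% beside 53.9% of genes above the median. Among those that fell was Hipk2, a kinase that phosphorylates p53, at -0.76 ± 0.06. The other 4 that fell were Cdkn2a, Trim24, Ppp1r13l and Trp53bp2, of which the last 3 were named after their values were seen. Adding forskolin raised Ppm1d, the phosphatase that switches off p53 signalling, by 0.36 ± 0.06 and Ppp1r13b, a p53 cofactor, by 0.54 ± 0.06. It lowered Atr by a log2 difference of -0.38 ± 0.09 (limma adjusted p = 0.0364). No others of the 25 were called there, and the share, 12%, was near the 12.9% of genes above the median. Thapsigargin alone had lowered Ppm1d, at -0.19, and Ppp1r13b, at -0.48, relative to DMSO.

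Other known p53 targets were also divided. Of 32 measured targets in arrest, repair and metabolism 10 rose and 12 fell with thapsigargin, with a median of -0.13. The share called was 68.8%, beside 55.3% of genes above the median, where 31 of the 32 lay. Trp53i11 fell by a log2 difference of -1.61 ± 0.06 and Gpx1, which encodes a glutathione peroxidase, by -0.95 ± 0.05, while the polymerase gene Polh rose by 0.95 ± 0.11. With both agents 8 rose and 15 fell against DMSO, with the matrix glycoprotein gene Thbs1 at -1.11 ± 0.05. That share was 71.9%, beside 53.9% of genes above the median. Adding forskolin lowered 4, Thbs1 at -0.33, Ddit4 at -0.27, Phlda3 at -0.26 and Gpx1 at -0.25, and raised 0. The share called, 12.5%, is near the 12.9% of genes above the median. At an unadjusted p 13 were lower and 1 higher, with no share of all genes at that threshold to set beside them.

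Of 19 measured targets in cell death 9 fell and 3 rose with thapsigargin, with a median of -0.20. The share called was 63.2%, beside 55.3% of genes above the median, where 18 of the 19 lay. The largest falls were those of Casp1, an inflammatory caspase, at -2.64 ± 0.12, and of the death receptor gene Fas at -2.28 ± 0.07. Fas read 9.85, 9.94 and 9.99 with DMSO, 7.63, 7.53 and 7.77 with thapsigargin, and 7.45, 7.52 and 7.60 with both agents, so the treated arrays overlapped each other, all below the controls. Dapk1 at -0.95 ± 0.06 and Pidd1 at -0.70 ± 0.06 followed. The 3 that rose were Bid at 0.45, Eda2r at 0.44 and Pmaip1 at 0.17, of which Eda2r and Pmaip1 were named after their values were seen. Bid, which links death receptors to mitochondria, fell on adding forskolin by a log2 difference of -0.65 ± 0.06 (limma adjusted p = 0.000167), as did the death receptor gene Tnfrsf10b by -0.36 ± 0.07 (adjusted p = 0.0116). With both agents 12 fell and 1 rose against DMSO, the 1 being Eda2r.

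**Figure D4:**
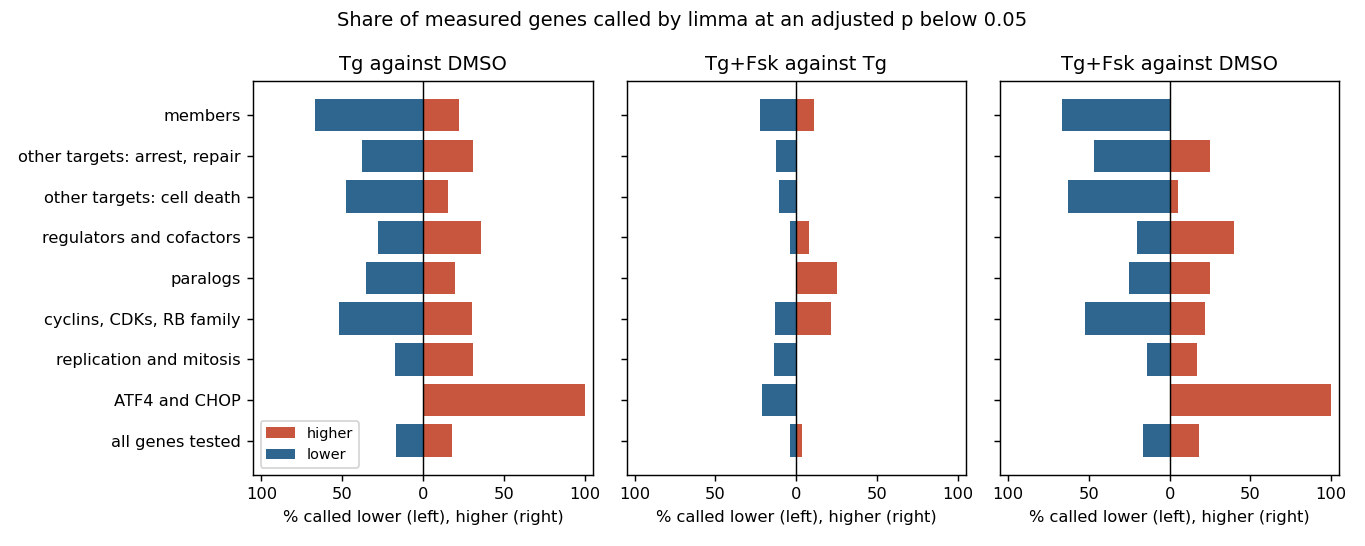
Percent of the measured genes of each list called lower (bars to the left) and higher (bars to the right) by limma in the 3 comparisons, with all genes tested in the bottom row; the lists have 9 to 32 measured genes. The 14 measured ATF4 and CHOP genes were all called higher in both comparisons with DMSO, whereas the p53 target lists hold calls in both directions after thapsigargin.

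The genes of the cell cycle did not change together. Of 23 measured cyclins, cyclin-dependent kinases and members of the RB family 7 rose and 12 fell with thapsigargin, with a median of -0.35. The share called was 82.6%, beside 55.3% of genes above the median, where all 23 lay. Cdkn2b, an inhibitor of the kinases that pair with D cyclins, fell by a log2 difference of -1.07 ± 0.06 (limma adjusted p = 3.91e-07), and Lin52, a subunit of the complex that silences cell cycle genes in resting cells, rose by 1.01 ± 0.08. Ccnd1, the cyclin that carries cells out of the resting state, fell again on adding forskolin, by a log2 difference of -0.78 ± 0.06 (limma adjusted p = 6.32e-05). Forskolin lowered Cdk6 at -0.53 and Ccne1 as well, and raised 5 genes of this list. The 5 were Cdkn2c at 0.40, Rbl2 at 0.36, Ccnd3 at 0.21, Rb1 and Cdkn2d. Ccne1, Rb1 and Cdkn2d were named after their values were seen. On adding forskolin 34.8% of the list was called, beside 12.9% of genes above the median. Of 29 replication and mitosis genes that p21 is known to repress through these complexes 9 rose and 5 fell with thapsigargin. Their median was 0.13. The share called was 48.3%, beside 35% of all genes and 55.3% of genes above the median, where 24 of the 29 lay. The rises were led by the replication licensing genes Mcm2 at 0.99 ± 0.06 and Mcm7 at 0.90 ± 0.07, and Ccna2 fell by a log2 difference of -0.77 ± 0.10. The other 4 that fell, named after their values were seen, were Mki67 at -0.52, Plk1 at -0.42, Ccnb2 at -0.39 and Nusap1 at -0.24. Adding forskolin lowered Mcm3 at -0.70, Mcm6 at -0.61, Mcm2 at -0.52 and Mcm4 at -0.35 and raised 0 of the 29 (1 at an unadjusted p). Here 13.8% of the list was called, beside 12.9% of genes above the median.

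For contrast, all 14 measured ATF4 and CHOP factors and targets rose with thapsigargin, with a median of 1.76 and Trib3 at 3.83 ± 0.09. Among genes above the median, where all 14 lay, 29.9% were called higher. The 14 rose with both agents as well, with a median of 1.53, where 29% of genes above the median were called higher. On adding forskolin 3 of the 14 fell and 0 rose (1 at an unadjusted p): Nupr1 at -0.34, Psat1 at -0.34 and Ddit4 at -0.27. That share was 21.4%, beside 12.9% of genes above the median. Sesn2 and Ddit4 belong to both this list and the p53 target lists.

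The genes with the most similar profiles were sought for the 3 targets whose group means ranged widest, as the smallest root mean square difference of centred log2 values over the 9 arrays among 12998 genes above the median. For Perp these were Ifi30, which encodes a lysosomal thiol reductase, at 0.11, the small GTPase gene Rhob at 0.11 and the metalloprotease inhibitor gene Timp2 at 0.12. For Sesn1 they were Prex2, Trim7 and Pald1, each at 0.08. For Trp53inp1 the nearest was Inpp5k, an inositol phosphatase gene, at 0.02, followed by Dcaf6 and Pnpla6, both at 0.04. Inpp5k read 10.02, 10.19 and 10.17 with DMSO, 9.22, 9.19 and 9.26 with thapsigargin, and 9.51, 9.53 and 9.56 with both agents. None of these 9 genes is another of the p53 targets described here. Only 3 of 12998 genes were taken for each, so this does not show whether p53 targets share profiles.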

How the data were processed

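Each array's deposited column holds log2 probe set values that the authors computed by RMA in affy, per the submitters' processing notes. The sources used here give no version, build or annotation for that step. RMA makes the arrays' distributions alike, so changes are relative to the bulk of genes. Array number limits the precision. Scanner files were not used here, so detection was not checked.

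Of 41345 probe sets 23521 had 1 symbol, 1814 several and 16010 none. All 9 arrays entered 1 limma fit (limma 3.58.1, R 4.3.3) of 3 group means with 6 residual degrees of freedom, with two-sided tests, Benjamini-Hochberg adjustment over 22180 genes and a threshold of 0.05. The procedure was tested on simulated data. Alternatives were the 6 arrays compared alone, an intensity trend with a robust prior, array weights, median centring, another quantile normalization, only genes above the median, means over probe sets, a replicate block, and leaving out single arrays. Figures used matplotlib 3.10.9.

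Named genes are all members, up to 4 called genes with the largest change per list and comparison, and the 3 nearest profiles of 3 members; others are marked. Members, lists and rule were chosen with earlier results of these data known. Symbols follow the array annotation.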

Additional observations from a re-analysis of the deposited data

How the results depend on the processing

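Of 27 differences, 9 genes in 3 comparisons, 17 were called; 14 of these kept their call in each of the 15 alternatives run per comparison. The 3 that did not were those of Cdkn1a against DMSO in both comparisons and of Zmat3 after thapsigargin. Of the 10 not called, 4 were called in some alternative. The alternative of means over probe sets could not change the values of the 9 genes, since each had 1 probe set with only its symbol. The number of targets higher after thapsigargin, 2, was 1 with only the 6 arrays compared in the fit, 1 after another quantile normalization, 1 to 2 with 1 array left out, and 1 without DMSO replicate 1 and combined replicate 1 together, the last chosen after seeing the data. The cause was not tested. Under a replicate block (replicate numbers as a term) the counts higher and lower were 2 and 6 after thapsigargin, 1 and 2 on adding forskolin and 0 and 5 for both agents against DMSO; the call lost was that of Cdkn1a. Same-numbered arrays deviated together with correlations from -0.07 to 0.25. Arrays with different numbers were not compared in this way, so these correlations cannot show whether the numbers mark pairs. The main fit did not take the numbers as pairs. Over all genes 1745 were called on adding forskolin, and 1150 without combined replicate 2. A probe set near background has a compressed change, and 3 arrays a group limit what small differences can show. By mean level over the 9 arrays Cdkn1a, Ccng1, Mdm2 and Plk2 stood at percentiles 99.9, 99.8, 98.9 and 98.7 of all genes. Whether the top of the scale limited their changes was not tested.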
